A study of Gallus gallus with 24 samples.

Results

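The messenger RNAs of the cytosolic ribosomal proteins were followed in breast muscle, duodenum, liver and whole brain of newly hatched and week-old chicks. Members were the probe sets whose single gene symbol in the array annotation is that of a large-subunit (RPL) or small-subunit (RPS) protein, leaving out RPL3, RPL3L and the S6 kinases. The rule found 129 of the 38535 probe sets on the array, for 61 gene symbols, 38 of the large and 23 of the small subunit. Of these, 117 probe sets passed the filter on low signals, at least 1 for each of the 61 genes, and the other 12 had mean signals of 21.2 to 62.7. All 129 gene numbers were found in the RefSeq gene table. RPL26L1, RPL39L and RPS4Y1 are listed there with RPL26, RPL39 and RPS4 or RPS4X as older names, so these symbols are used as the array gives them. No probe set carried the symbol RPSA, and a probe set assigned to both GNAL and RPS13 was not a member.

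The birds were Ross broilers, a commercial meat strain, all labelled male, killed at day 0, just after leaving the egg, or at day 7. Each of the 8 groups, 4 tissues at 2 ages, was measured as 3 pools of total RNA from 4 to 5 chicks each, 1 array per pool, for 24 arrays. The labels do not say whether the pools of different tissues came from the same chicks. A pool shows the mean of its chicks, and in whole tissue fewer cells of a type and less RNA per cell cannot be told apart.

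Ribosomal proteins form the protein part of the ribosome, the particle that joins amino acids into protein. Their messenger RNAs are among the most abundant of a cell, and in vertebrates they begin with a run of pyrimidines through which the mTOR pathway sets their translation. Growing and dividing cells make more ribosomes than resting cells, and a few members have a second gene, a paralog, that is used more in some tissues than in others.

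The arrays matched their tissue labels. The summed signal of 13 liver genes was 551687 to 835841 in liver and at most 41079 elsewhere, and that of 12 brain genes was 183499 to 216671 in brain and at most 10741 elsewhere. The sum of 11 skeletal muscle genes was at least 439385 in muscle and at most 23234 elsewhere, and the sum of 14 intestinal epithelium genes was at least 128885 in duodenum and at most 70447 elsewhere. No 2 arrays were identical, and pools of a group correlated at 0.913 to 0.98 across probe sets. Mean signals of hybridisation control transcripts were highest for pool 2 of duodenum at day 0 (23142) and pool 1 at day 7 (38256), with 5149 to 13367 on all remaining arrays. The log2 ratio of 5′ to 3′ signal of housekeeping controls was lowest on brain day 0 pool 1 (-1.49) and brain day 7 pool 3 (-1.07). The next lowest were brain day 0 pool 3 (-0.89) and brain day 7 pool 1 (-0.82). The remaining brain arrays, at -0.66 and -0.7, lay within the -0.81 to -0.35 of the other tissues. Some results are also given without the 2 duodenum arrays of highest control signal, or without brain day 0 pool 1 and brain day 7 pool 3. The counts of duodenum against muscle are given only with all arrays.

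Most members gave very bright signals. The brightest probe set of each gene had a median signal, averaged over the arrays, of 25163 and a median rank at the 99.5th percentile of its array. RPL39L, a protein that lines the exit tunnel of the large subunit in its common form, was the member at that median. The other 56 tested probe sets, from genes with several, had a median signal of 307 and a median rank at the 66.6th percentile. Of the 61 genes, 29 had 1 probe set and 32 had several, up to 7. RPL31 (mean signal 501) and RPS13 (106) had no bright probe set at all. For this reason the brightest probe set stands for each gene below, and the others are described apart.

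Together the 61 genes took a larger share of the array signal in breast muscle and liver than in whole brain. Their probe sets held 5.48% ± 0.411 of the summed signal in muscle at day 0 and 6.03% ± 0.178 at day 7 (SD, n = 3). The share was 2.69% ± 0.172 and 2.48% ± 0.182 in brain at the same ages. In duodenum it was 5.09% ± 0.561 at day 0, with pools at 4.51%, 5.63% and 5.14%, and 3.71% ± 0.425 at day 7, with pools at 3.72%, 3.28% and 4.13%. All 3 older duodenum pools lay below the 3 younger ones, while in liver the shares of 4.95% ± 0.359 and 4.91% ± 0.211 overlapped. The 6 brain pools lay below each of the 18 pools of the other tissues.

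**Figure D1:**
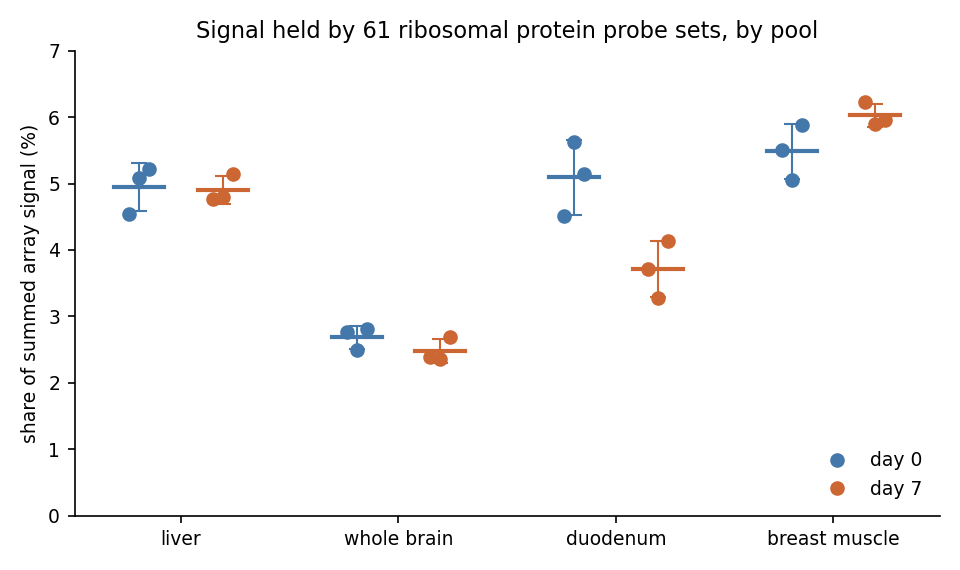
Share of the summed array signal (y axis, percent) held by the brightest probe set of each of 61 ribosomal protein genes, by tissue and age, with 1 point per pool. Thick lines are group means and error bars are the SD of 3 pools. The 6 brain pools lie between 2.36% and 2.81%, and the duodenum pools are lower at day 7 than at day 0.

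Whole brain had the lowest level of all 61 genes when the tissue means, over both ages, were compared. The differences between tissue means were medians of 1.25 on the log2 scale between liver and brain, -0.91 between brain and duodenum and -1.49 between brain and muscle. As deposited, breast muscle was the highest tissue for 46 genes, liver for 12 and duodenum for 3. Over all 117 probe sets tested, 107 differed between tissues in limma's F test at an adjusted p under 0.05, which is 91.5% against 85.8% of all probe sets tested. By pairs, 96 were higher in liver than in brain (background 33.2%), 97 were lower in brain than in duodenum (33.7%) and 94 were lower in brain than in muscle (32.4%). Duodenum was lower than muscle for 74 (28.8%), and liver was higher than duodenum for 53 (21.6%) and lower than muscle for 42 (29.9%).

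The lower level in brain held under both other scalings of the arrays, though it shrank after quantile normalization to medians of 0.5, -0.64 and -0.66. Brain minus duodenum and brain minus muscle were then close to each other, where they were -0.91 and -1.49 as deposited. The counts by highest tissue and by pairs of tissues are as deposited and are not given here under the other scalings. The arrays of lowest 5′ to 3′ ratio were also from brain, and the part of this in its lower level was not tested. The order of liver and duodenum did not hold: the median difference was 0.31 as deposited and -0.13 after quantile normalization. Neither rescaling moved the median of all probe sets by over 0.1 in a comparison of tissues.

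RPS28, a small-subunit protein near the messenger RNA exit site, had the widest spread between tissues. Its signals in the 3 day 0 pools were 1825, 1784 and 2081 in brain, against 22840, 13457 and 24266 in muscle. At day 7 they were 1363, 1662 and 2730 in brain and 41671, 38298 and 38977 in muscle. No brain pool came near a muscle pool, and the tissue means differed by 3.88 ± 0.17 (log2, muscle above brain, a 14.7-fold difference) with an adjusted p of 3.03e-16 in limma. Its difference of duodenum from muscle was -1.76. Its second, dim probe set did not separate liver from brain (0.23 ± 0.31, adjusted p = 0.537) but was lower in brain than in muscle (-2.2 ± 0.31).

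After RPS28 came RPS27L, described below, with 3.45 between liver and brain, then RPL23 (2.95), RPL35A (2.92) and RPL29 (2.88). In RPL29, also known as a heparin-binding protein, the second probe set gave 3.31, and on the brightest liver pools ran from 12839 to 18431 and brain pools from 1564 to 3820. RPL23, which binds MDM2 in human cells, ran from 1669 to 2884 in brain and from 9507 to 17596 in muscle. RPL35A, one of the genes mutated in human Diamond-Blackfan anaemia, ran from 793 to 2144 in brain and from 8680 to 12140 in liver. For these 3 genes the brain pools of both ages lay below every pool of liver and muscle. The narrowest ranges between tissue means were 0.37 for RPS13, 0.64 for RPL31, 0.73 for RPL19 and 0.85 for RPL6 and for RPS6, the protein that S6 kinases phosphorylate. Of these RPS13 and RPL31 were dim, with mean signals of 106 and 501, and the scale used understates differences of dim probe sets.

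**Figure D2:**
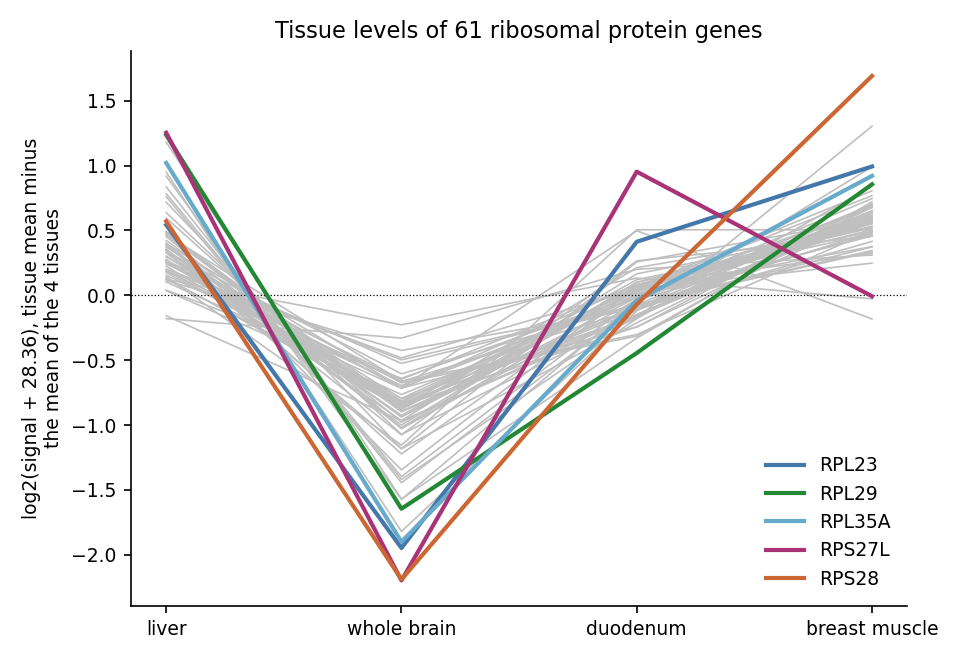
Tissue mean of log2(signal + 28.36) minus the mean of the 4 tissues (y axis), with 1 line per gene for the brightest probe sets of 61 ribosomal protein genes. The 5 genes with the widest range are coloured. All lines dip in whole brain, RPS28 is highest in muscle, and RPS27L is high in liver and duodenum. Under quantile normalization the medians keep brain lowest, while liver then lies below duodenum.

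From day 0 to day 7 most ribosomal protein values of the duodenum moved below 0, and 28 of the 61 brightest probe sets fell while that of RPS27L rose. The median change over the 61 genes was -0.45 on the log2 scale, and 59 of 61 lay below 0 (background 54.5%), 37 of 38 of the large and 22 of 23 of the small subunit. Of the 117 probe sets, 46 fell at an adjusted p under 0.05 in limma and 1 rose, which is 39.3% against 13.7% of all probe sets that fell and 8.8% that rose. The 2 subunits had medians of -0.42 and -0.45, beside -0.06 over all probe sets tested. In 43 of the 117 every day 7 pool lay below every day 0 pool (background 18.0%).

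Among bright probe sets of the large subunit, 1 of RPL4 fell most. It reaches into the exit tunnel, and the probe set with the larger change read 24205, 18068 and 26741 at day 0 and 7153, 12722 and 12258 at day 7. The pools of the 2 ages did not overlap, and the change was -1.13 ± 0.17 (adjusted p = 3.23e-05, limma). The brighter RPL4 probe set fell by 0.6 ± 0.16 (adjusted p = 0.0091). RPL5, which carries the 5S RNA and with it can bind MDM2 in human cells, read 21001, 34059 and 24131 at day 0 and 15518, 13684 and 16446 at day 7. This was a change of -0.77 ± 0.13 without overlap (adjusted p = 0.000137). RPL11, the partner of RPL5 on the 5S RNA, read 21959, 32179 and 26198 and then 21300, 14351 and 19121. Its ages came close without overlapping, with a change of -0.55 ± 0.15 (adjusted p = 0.00693).

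Among bright probe sets of the small subunit, 1 of RPS2 fell most. RPS2 sits where the messenger RNA enters, and its second probe set read 23485, 31464 and 26228 at day 0 and 15156, 12648 and 15883 at day 7. The change was -0.89 ± 0.12 (adjusted p = 9.35e-06), and the brighter probe set changed by -0.73 ± 0.18 (adjusted p = 0.00368). RPS7, needed in human cells to mature the RNA of the small subunit, read 22142, 23033 and 23913 and then 14731, 13049 and 18511, a change of -0.59 ± 0.12 without overlap (adjusted p = 0.000913). After centring, RPS7 (adjusted p = 0.0504) and the brighter RPS2 probe set (0.0722) no longer passed. RPS14, a protein of the platform whose gene lies in the region lost in the human 5q- syndrome, fell on all 4 tested probe sets, by 0.42 on the brightest and by up to 1.05 on the others. Those 2 calls were lost after centring (adjusted p = 0.117 and 0.129).

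The remaining brightest probe sets that fell in duodenum were closely grouped. In the large subunit they were RPL6 (-0.57), RPL7 (-0.5), RPL7A (-0.55), RPL10A (-0.57), RPL13 (-0.6), RPL14 (-0.72), RPL15 (-0.53), RPL24 (-0.42), RPL26L1 (-0.55), RPL27A (-0.52), RPL31 (-0.64), RPL32 (-0.38), RPL37A (-0.53), RPL39L (-0.52) and the paralog RPL22L1 (-0.65). In the small subunit they were RPS3 (-0.62), RPS4Y1 (-0.47), RPS10 (-0.45), RPS12 (-0.68), RPS15A (-0.51), RPS16 (-0.59) and RPS24 (-0.54). Several genes did not pass the test although their values were also below 0, among them RPL23 at -0.71 (adjusted p = 0.0579), RPS26 at -0.45 (0.0638) and RPS6 at -0.38 (0.178). RPL34 was the exception with a value above 0, 0.69 (adjusted p = 0.232), and its day 0 pools were far apart, at 20075, 5054 and 25020.

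With the 6 duodenum arrays alone, 7 of the 117 fell, against 5.69% of all probe sets, and 0 of the 61 brightest did. The log2 changes are the same in that setting, each being the day 7 mean minus the day 0 mean of the same arrays. The 59 values below 0 there are thus no check of direction. By limma in that setting 30 of the 117 were lower at an unadjusted p under 0.05, a count made for members only. Without duodenum day 7 pool 2 the count was 29 (background 12.3%). Without the 2 duodenum arrays of bright controls 35 fell, 22 of them among the 61 brightest. The share of all probe sets in that setting is not given here, so this count is not set against a background. After centring each array on its median 21 fell (background 8.64%), 11 of them among the 61 brightest. Under these 2 settings and quantile normalization the median of the 61 genes stayed between -0.41 and -0.48.

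Other cells and states moved in the same tissue. Of 38 cell cycle genes 35 fell in duodenum, with a median of -1.39 and a summed signal of 102395 to 114263 at day 0 and 40087 to 46694 at day 7. The sum of 11 T cell genes went from 1499 to 1777 at day 0 to 18888 to 24206 at day 7, and 5 of the 9 tested rose. The sum of 9 myeloid genes went from 3905 to 4611 to 10203 to 12537, with 6 up and 1 down, and that of 13 red blood cell genes from 4437 to 7052 to 13988 to 15885, with 3 up. The sum of 14 intestinal epithelium genes went from 128885 to 177096 to 209794 to 477155, and 8 rose, while 5 of 12 smooth muscle and connective tissue genes fell. No listed marker sum was at 0. The part of these shifts in the ribosomal protein values was not tested.

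In breast muscle most ribosomal proteins had higher values at day 7 in the signals as deposited, but this direction turned with the scaling. The median change over the 61 genes was 0.29, with 56 above 0 (background 49.1%), and it was 0.21 after centring and -0.12 after quantile normalization, with 41 below 0. Of the 117 probe sets 13 rose (11.1%, against 11.6% of all tested) and 6 fell (background 15.1%). In 46 of the 117 the day 7 pools all lay above the day 0 pools, which is 39.3% against 21.2%. After quantile normalization 3 of the 61 brightest rose and 12 fell.

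The 3 brightest probe sets that rose in muscle under all 3 scalings were RPS27L, RPL22L1 and RPS28. RPS28 read 22840, 13457 and 24266 at day 0 and 41671, 38298 and 38977 at day 7. All older pools lay above all younger ones, with a change of 1.02 ± 0.24 (adjusted p = 0.00229, limma) and of 0.65 after quantile normalization (adjusted p = 0.0446). The first 2 are described below.

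The other rises in muscle were called only as deposited, and each lost its call after centring and after quantile normalization. RPL38, which in mice is needed to translate Hox messenger RNAs, rose on 3 of its 5 probe sets, by 0.69 on the brightest. On the probe set with the largest change it read 10287, 6593 and 11933 at day 0 and 23029, 12914 and 17824 at day 7, without overlap (0.9 ± 0.3, adjusted p = 0.0275). RPS29, a small zinc-binding protein of the small subunit, read 11494, 8008 and 13331 and then 24704, 14413 and 17926 (0.79 ± 0.27, adjusted p = 0.0331). RPS26, which lies at the messenger RNA exit site, read 24143, 17482 and 26715 and then 37583, 31066 and 31273 (0.56 ± 0.17, adjusted p = 0.0168). In all 3 genes the day 7 pools lay above the day 0 pools.

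RPL32, RPL39L, RPS2, RPS16 and RPL24 also rose as deposited, by 0.56, 0.48, 0.43, 0.39 and 0.39. After quantile normalization their changes were 0.13, 0.13, 0.07, -0.01 and 0.02. The 6 falls in muscle were in dim probe sets. They were 2 probe sets of RPL21 and 1 each of RPL9, RPL27, RPL31 and RPS25, and all 6 also passed after centring and after quantile normalization.

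The muscle count depended on single arrays. Leaving out muscle pool 2 of day 0 gave 5 rises (background 9.76%), leaving out pool 1 of day 7 gave 6 (9.56%), and leaving out pool 3 of day 7 gave 8 (9.72%). It was 31 without the 2 duodenum arrays of bright controls (14.7%), and 34 with the 6 muscle arrays alone (14.9%). Among the 61 brightest 10 rose with all arrays and 22 without those 2 duodenum arrays. In the same tissue 30 of 38 cell cycle genes rose (median 1.3), with a summed signal of 14626 to 15857 at day 0 and 30916 to 34247 at day 7, and the sum of 11 skeletal muscle genes went from 439385 to 450398 to 639114 to 765967, with 3 called. The sum of 12 brain genes in muscle went from 9457 to 10741 to 2487 to 2566, with 4 down and 1 up. Most of that sum was MBP, with a mean of 9329 at day 0 and 1965 at day 7. The sum of 13 red blood cell genes went from 42780 to 49159 to 55330 to 72938, with 2 up. The part of these in the ribosomal protein values was not tested.

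**Figure D3:**
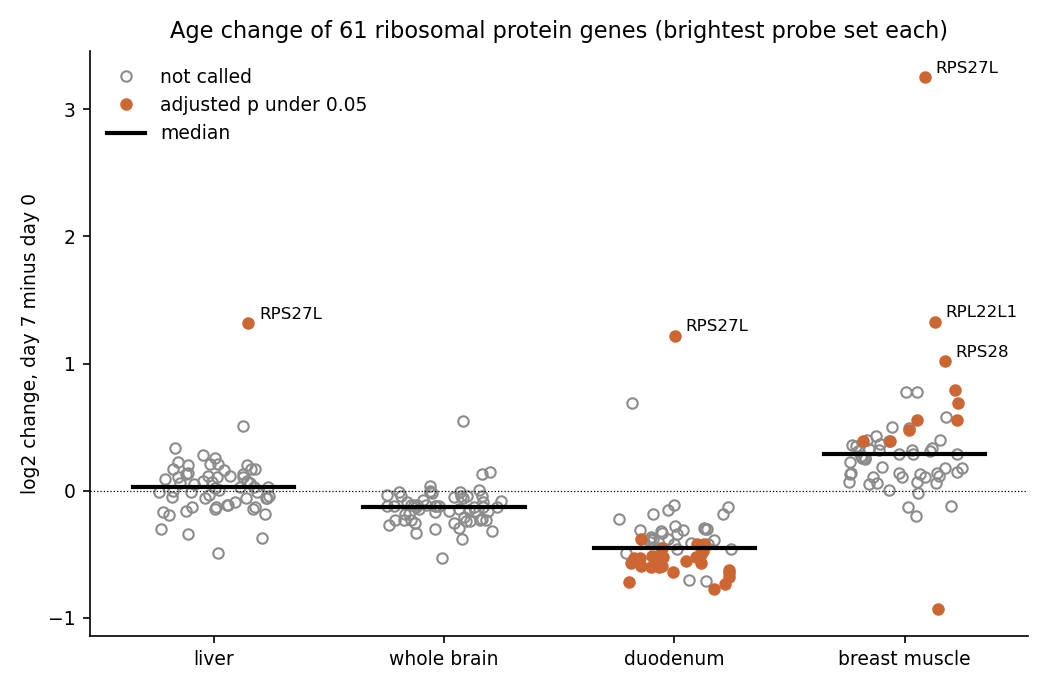
Log2 change from day 0 to day 7 (y axis) of the brightest probe set of 61 ribosomal protein genes in each tissue. Filled points passed an adjusted p under 0.05 in limma, and black lines are medians. The duodenum points lie almost all below 0 with a median of -0.45, and the muscle median of 0.29 becomes -0.12 after quantile normalization. RPS27L stands above the rest in liver, duodenum and muscle.

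Liver and whole brain had few called members. In liver 1 probe set rose, that of RPS27L (background 5.22%), and 1 fell, a dim probe set of RPS25 (6.0%). The median over the 61 genes was 0.03, and it was -0.07 after centring and -0.09 after quantile normalization. Values ran from -0.49 for RPL23 to 0.51 for RPL22L1 and 1.32 for RPS27L. RPS7 read 28822, 31840 and 33876 at day 0 and 26104, 22014 and 26665 at day 7, and its fall without overlap did not pass the test (-0.34 ± 0.12, adjusted p = 0.0795). After quantile normalization it passed in limma (-0.41, adjusted p = 0.0117), as did RPL8 (-0.46, adjusted p = 0.00189) and RPL5 (-0.27, adjusted p = 0.0447). After centring 0 of the 61 brightest fell in liver.

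In brain no member was called by limma in either direction, beside 0.129% of all probe sets that rose and 0.0951% that fell. At an unadjusted p under 0.05, counted for members only, 3 were higher and 2 lower. With array weights 1 rose (background 0.768%) and 2 fell (background 0.578%). The median change of the 61 genes was -0.13, and 56 of them lay below 0 (background 49.7%). Red blood cell genes in brain went from a sum of 16795 to 19693 to one of 53605 to 56683, with 3 of 12 up, and their part in these values was not tested. RPL31 had the highest value of the 61 in brain, 0.55 ± 0.17 (adjusted p = 0.357). Its pools at 298, 296 and 316 at day 0 lay below those at 502, 479 and 401 at day 7. Without the 2 brain arrays of low 5′ signal the median was -0.21 and no member was called.

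As deposited, the age change of the family was lower in duodenum than in muscle. For 39 of the 117 probe sets the age effect was lower in duodenum, against 10.9% of all probe sets tested, and for 28 of the 61 brightest. The same counts under the other scalings are not given here. After quantile normalization 59 of the 61 genes were below 0 in duodenum and 41 in muscle, and after centring 59 and 11. Of the 61 genes, 54 had a value below 0 in duodenum and above 0 in muscle as deposited. Over all probe sets tested, 54.5% were below 0 in duodenum and 49.1% above 0 in muscle, and the share with both was not counted. RPL22L1, RPL24, RPL32, RPL39L, RPS2 and RPS16 had a probe set called down in duodenum and up in muscle as deposited. Under both other scalings all of these but RPL22L1 lost the muscle call, and RPL22L1 lost the duodenum call after centring. The duodenum calls of the others after centring are not all given here. Of the 61 brightest, 11 fell in duodenum after centring, against 28 as deposited.

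The F test over the 4 tissues called 31 of the 117 (26.5%), close to the 29.5% of all probe sets. Without muscle day 7 pool 1 it called 19 (background 26.5%), and after centring 7 (background 20.0%). For the second probe set of RPS2 the difference of the age effects, duodenum minus muscle, was -1.32 ± 0.17 (adjusted p = 8.45e-06). In muscle it read 28776, 30377 and 29905 at day 0 and 41226, 40416 and 38447 at day 7, without overlap, as in duodenum but in the opposite direction. After quantile normalization the muscle change was 0.07 and the duodenum change -0.92.

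RPS27L stood apart from the family. It is a paralog of RPS27 that p53 switches on in human cells. No member carried the symbol RPS27, so RPS27L could not be set beside its parent, and it had no other tested probe set. In muscle it read 1130, 1010 and 1399 at day 0 and 14194, 11056 and 9435 at day 7, and in liver 4915, 5543 and 6270 and then 11952, 15947 and 14209. In duodenum it read 4518, 4332 and 5251 and then 10810, 9255 and 13095, and in brain it stayed between 667 and 913. In muscle, liver and duodenum every older pool lay above every younger one, and in brain the ages overlapped.

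The increase of RPS27L was 9.54-fold in muscle (log2 3.25 ± 0.17, adjusted p = 4.86e-13, limma). It was 2.5-fold in liver (1.32 ± 0.17, adjusted p = 4.56e-06) and 2.33-fold in duodenum (1.22 ± 0.17, adjusted p = 8.79e-06). In brain the change was -0.04 ± 0.17 (adjusted p = 1.0). The change in liver minus that in muscle was -1.93 ± 0.24 (adjusted p = 3.2e-06), and for duodenum minus muscle it was -2.04 ± 0.24 (adjusted p = 1.5e-06). Liver and duodenum differed by 0.11 ± 0.24 (adjusted p = 0.851). The 3 rises passed the threshold in each of the 18 alternatives run for each tissue.

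RPL22L1, the paralog of RPL22, rose in muscle and fell in duodenum. In muscle it read 3867, 3410 and 4634 at day 0 and 11775, 6674 and 12624 at day 7, which was 2.52-fold higher (1.33 ± 0.21, adjusted p = 2.4e-05). In duodenum it read 2470, 3301 and 2673 and then 2020, 1621 and 1708 (-0.65 ± 0.21, adjusted p = 0.0256). The pools of the ages overlapped in neither tissue, and duodenum minus muscle was -1.98 ± 0.29 (adjusted p = 3.64e-05). In liver its pools were higher at day 7 (0.51 ± 0.21, adjusted p = 0.127) and in brain lower (-0.53 ± 0.21, adjusted p = 0.594), without passing the test. The duodenum call was lost after centring (adjusted p = 0.0786), and the other 2 RPL22L1 probe sets, of mean signals 198 and 87.9, were not called in any tissue.

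RPL22 itself was not called in any tissue. In muscle it read 15150, 11749 and 17494 and then 21209, 17523 and 19026 (0.39 ± 0.21, adjusted p = 0.176), and in duodenum 15377, 8699 and 16959 and then 8129, 10318 and 14216 (-0.31 ± 0.21, adjusted p = 0.332). Its muscle pools came close without overlapping between ages, and its duodenum pools did. RPL7L1, a paralog of RPL7, was not called either. It read 6152, 6696 and 5677 and then 4639, 5101 and 4586 in liver (-0.37 ± 0.15, adjusted p = 0.118). RPL7 changed by -0.5 in duodenum (adjusted p = 0.0306), against -0.33 for RPL7L1 (adjusted p = 0.114), and the 2 differences were not tested against each other.

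**Figure D4:**
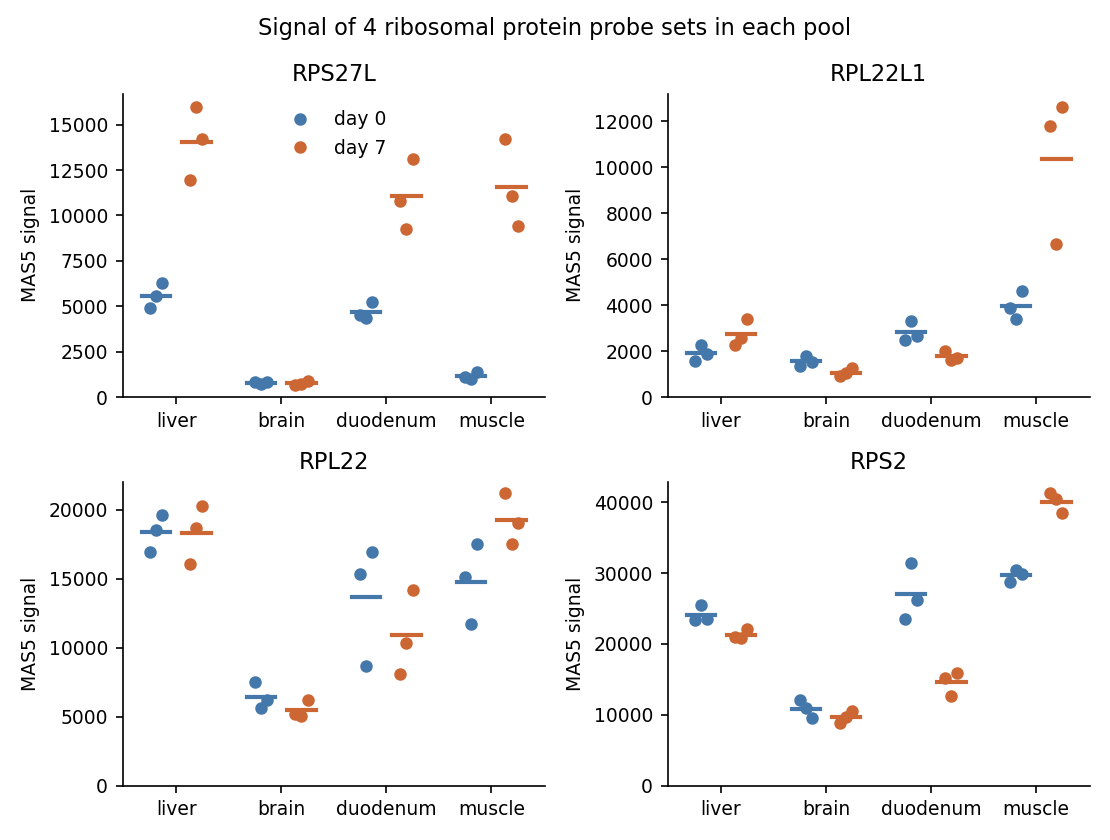
MAS5 signal (y axis, linear) of RPS27L, RPL22L1, RPL22 and the second probe set of RPS2 in each of 3 pools per tissue and age, with lines at the group means. RPS27L rises in liver, duodenum and muscle but stays at or under 913 in brain, RPL22L1 rises in muscle, and RPS2 is lower at day 7 in duodenum. The RPS2 rise in muscle shrinks to 0.07 on the log2 scale after quantile normalization.

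Probe sets of 1 gene did not always move together. The 56 probe sets that were not the brightest of their gene had a median change of -0.56 in duodenum, where 18 fell, and of -0.02 in muscle, where 3 rose and 5 fell. RPS25, a small-subunit protein used by viral internal ribosome entry sites, had 3 bright probe sets that changed by 0.15, 0.2 and 0.3 in muscle, none called. A dim one read 158, 174 and 143 at day 0 and 29.1, 26.0 and 79.9 at day 7, without overlap (-1.42 ± 0.3, adjusted p = 0.000869), and also fell in liver (-1.04 ± 0.3, adjusted p = 0.024).

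RPL21 showed the same split. Its bright probe set was not called in duodenum (-0.38, adjusted p = 0.11) or muscle (0.13, adjusted p = 0.608). A dim one read 752, 715 and 938 and then 287, 358 and 319 in duodenum (-1.24 ± 0.17, adjusted p = 1.13e-05). Another dim one read 1187, 1214 and 1244 and then 548, 551 and 601 in muscle (-1.06 ± 0.19, adjusted p = 0.000102). Neither pair of ages overlapped.

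RPL27 and RPL31 were alike in muscle. The dim RPL27 probe set read 906, 997 and 839 and then 409, 454 and 440 (-1.02 ± 0.22, adjusted p = 0.00114), while the bright one changed by 0.26 (adjusted p = 0.373). RPL31 read 737, 980 and 810 and then 398, 531 and 367 (-0.93 ± 0.17, adjusted p = 0.000228) and has no bright probe set for comparison. In RPL9 a dim probe set changed by -1.02 in muscle (adjusted p = 0.0305), and the bright one by 0.26 (adjusted p = 0.23).

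Dim probe sets also fell in duodenum. For RPL27A the dim one changed by -1.2 ± 0.36 (adjusted p = 0.0166), with 292, 226 and 305 at day 0 and 57.6, 157 and 112 at day 7. For RPL29 one changed by -0.93 ± 0.26 (adjusted p = 0.0125), with 571, 842 and 613 and then 313, 275 and 444, and for RPS12 one changed by -0.94 ± 0.32 (adjusted p = 0.0361). The RPS12 call was lost in 12 of 18 alternatives, with an adjusted p of 0.0861 after centring and 0.0577 after quantile normalization. A probe set of RPS14 with a mean signal of 1096 was higher in brain than in liver, at 1736 to 2368 against 201 to 494, while the brightest RPS14 probe set was lower in brain. What else the dim probe sets may bind was not tested, and no detection calls were used.

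**Figure D5:**
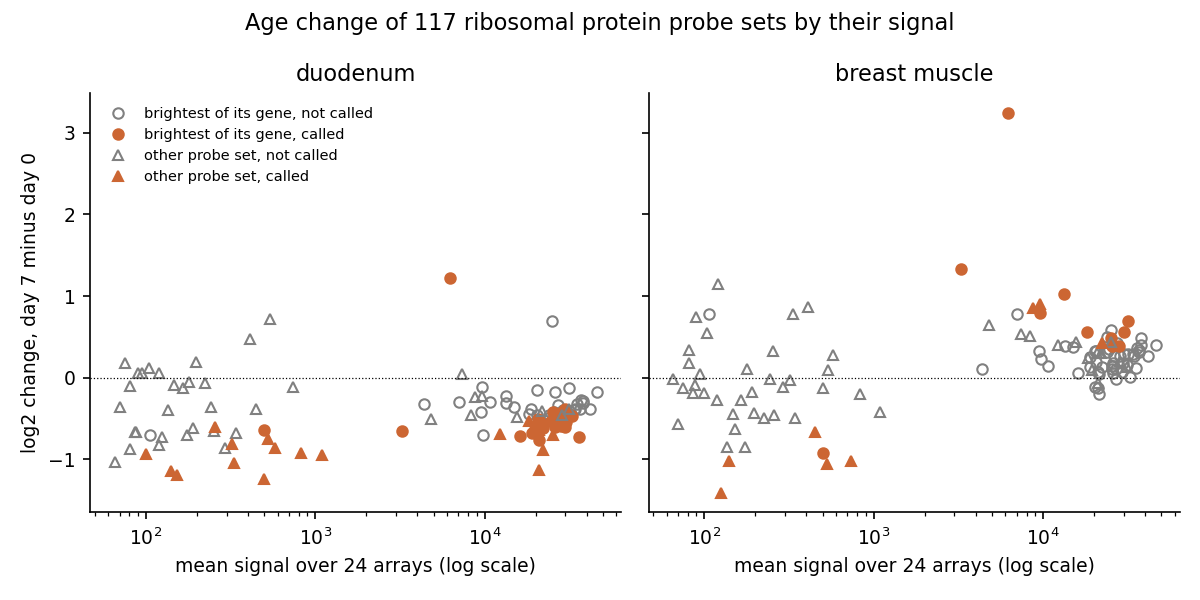
Log2 change from day 0 to day 7 (y axis) against the mean signal over 24 arrays (x axis, log scale) for 117 ribosomal protein probe sets in duodenum and breast muscle. Circles are the brightest probe set of a gene, triangles the others, and filled symbols passed an adjusted p under 0.05. In muscle the called falls are dim and the called rises bright, and most of those rises are lost after quantile normalization.

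Across the 8 group means the 61 genes followed one another. The correlation of each with the mean of the other members had a median of 0.973 and was at least 0.8 for 56. The lowest were RPL31 (0.388), RPS13 (0.53), RPL7L1 (0.632), RPS27L (0.672) and RPL22L1 (0.798). RPL31 and RPS13 are dim, with mean signals of 501 and 106, and the other 3 are paralogs. RPL26L1 (0.98), RPL39L (0.926) and RPS4Y1 (0.964), whose symbols also mark a paralog, were not among the lowest. These correlations share the same 24 arrays and their scaling. Brain was the lowest tissue for all 61 genes, so a high correlation over the group means need not reflect a shared age change. Of 11456 other genes the most alike were DUS1L (0.99), SRCIN1 (0.984), the elongation factor subunit EEF1B2 (0.984), ATP5H (0.983), MTG1 (0.982), SNRPGP15 (0.982), GABPA (0.979) and PPDPF (0.977). As deposited, EEF1B2 fell in duodenum (-0.51 ± 0.11, adjusted p = 0.00191, limma) and rose in muscle (0.39 ± 0.11, adjusted p = 0.0127). PPDPF did so too (-1.38 and 0.9). DUS1L and GABPA were called only in duodenum, where they fell, and SNRPGP15 only in muscle, where it rose. SRCIN1, MTG1 and ATP5H were called in neither, with ATP5H at -0.04 in duodenum and 0.3 in muscle. Changes of these genes under the other scalings are not given here.

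The acidic stalk proteins, which recruit translation factors to the large subunit and lie outside the symbol rule, were lower in duodenum and higher in muscle at day 7 in the signals as deposited. RPLP0 changed by -0.72 ± 0.14 in duodenum (adjusted p = 0.000403) and 0.54 ± 0.14 in muscle (adjusted p = 0.00458), and RPLP2 by -0.54 and 0.43, both called. RPLP1 rose in muscle (0.56, adjusted p = 0.0106) and was at -0.4 in duodenum (adjusted p = 0.0738), while a dimmer RPLP1 probe set fell in muscle (-0.77, adjusted p = 0.00601) and in liver (-0.86, adjusted p = 0.00586). RPSAP58, listed with RPSA as an older name, fell in duodenum on its 3 bright probe sets, by 0.68 to 0.87.

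Genes that build ribosomes fell in duodenum and also in liver, where few ribosomal proteins were called. Of 72 tested, 52 fell in duodenum (median -0.84) and 35 in liver (median -0.67), and none rose in either. After centring 34 fell in duodenum and 24 in liver. GAR1, which guides pseudouridine into ribosomal RNA, changed by -1.8 in duodenum, and EIF6, which keeps the large subunit apart until it is mature, by -1.34 in liver. In muscle 3 rose, among them PNO1 (0.9), and 5 fell, among them MRTO4 (-1.07) and DKC1 (-0.96), with a median of -0.07 that became 0.02 after quantile normalization, where 7 rose and 3 fell. MYC, a transcription factor that drives ribosome production, changed by -1.71 ± 0.17 in liver (adjusted p = 1.37e-07) and -1.24 ± 0.17 in duodenum (adjusted p = 1e-05), and by -0.01 in muscle (adjusted p = 0.983). Of the 21 growth-signal genes tested with it, 3 fell and 1 rose in liver, 4 fell and 2 rose in duodenum, and 7 fell and 4 rose in muscle. The falls in muscle included TSC1 (-1.42) and SESN1 (-1.33), and the rises there included DDIT4 (1.52) and MYCN (0.59). The products of the listed genes do not all act in the same direction, so these counts give no direction of growth signalling.

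Liver cell cycle genes moved with the assembly genes: 26 of 38 fell (median -1.02), with a summed signal of 57985 to 70082 at day 0 and 29157 to 35279 at day 7. T cell genes in liver went from a sum of 1157 to 1461 to one of 4273 to 4503, and red blood cell genes from 38132 to 46200 to 90120 to 92498. Their part in these values was not tested.

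Genes of translation itself fell in duodenum beside the ribosomal proteins. Of 18 elongation factors and related mRNAs that begin with pyrimidines, 11 fell (median -0.53), led by EIF3L (-0.92) and NAP1L1 (-0.91). In muscle 1 rose and 4 fell, and the median there was -0.05 as deposited and -0.33 after quantile normalization. Of 29 initiation factors 18 fell in duodenum, with EIF3B at -1.06, and in muscle 12 rose and 5 fell, with EIF2S2 at 1.4 and EIF3M at -1.31. Of 32 aminoacyl-tRNA synthetase and related genes 18 fell in duodenum and 11 rose in muscle, among them FARSB at -1.16 and 1.43. In muscle AIMP2, listed with the synthetases by name, was at 1.53, and 3 genes fell, among them AARS2 and RARS2 at -0.71. The list was drawn by symbol and does not separate cytosolic from mitochondrial enzymes. After centring 9 initiation factors and 8 genes of the synthetase list fell in duodenum, and 5 of each list rose in muscle.

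The mitochondrial ribosome, a separate particle that translates the mitochondrial genome, had a median above 0 in muscle under all 3 scalings. Of 65 tested genes 32 rose there (background 11.6%) and 3 fell (median 0.44), with MRPL55 at 1.61 ± 0.23 (adjusted p = 7.32e-06) and MRPS14 at 1.52. After centring 18 rose (median 0.36), and after quantile normalization 30 did (median 0.49). In duodenum 20 fell (median -0.36), but none did after centring, where the median was -0.35, and in liver 12 fell. The difference between the 2 kinds of ribosome was not tested.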

How the data were processed

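Total RNA of 24 pools was hybridised to Affymetrix chicken arrays, 1 per pool. The deposited values are MAS5 signal intensities per probe set, made by the authors per the submitters' processing notes, and which MAS5 release and options were used is not given in the sources used here. Each array's trimmed mean was 500.1 to 500.2, so the deposited intensities carry a global scaling. No genome build was named and no coordinates are given.

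The 96 control probe sets were left out. Probe sets whose mean reached 104.6, the median of all signals, in at least 1 group were tested, which left 26285. The test was limma 3.58.1 in R 4.3.3 on log2(signal + 28.36), the added value being the 25th percentile of all signals, with 8 group means, 24 arrays, a mean-variance trend and 16 residual degrees of freedom. Changes are day 7 minus day 0 on that scale, which understates dim probe sets, and ± is the standard error unless SD is named. P-values were adjusted by Benjamini-Hochberg over all probe sets, and over all pairs for pairwise differences, and called under 0.05. They set each change against a between-pool spread that limma shared over the 8 groups and moderated across probe sets. This is not the spread of the compared groups alone. The number of arrays limits the precision. The fit was tested on simulated data. Tables and figures were made with pandas 2.3.3 and matplotlib 3.10.9.

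The members and the gene lists were chosen with earlier results of these data known. Members given with values in every pool were the called ones with the largest changes without overlap and the largest differences between tissues. Paralogs, with their parents where these were members, and genes whose probe sets disagreed were also among them. RPL5, RPL11, RPS7, RPL34 and other examples were chosen after their values were seen. Non-member genes were read from their brightest probe set. Alternatives were median centring, quantile normalization, another added value, no filter, no trend, array weights, each tissue alone, a replicate block, and leaving out each pool and the arrays with unusual controls. Same-numbered pools of a tissue correlated at -0.44 to 0.37 in their deviations from the group means, so the numbers were not taken as pairs.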

Additional observations from a re-analysis of the deposited data

Results flagged for a closer look

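The age effect differed between tissues by a test of the difference for 31 of 117 ribosomal protein probe sets, which is 26.5% against 29.5% of all probe sets tested, and for 7 after centring, against 20.0%. The range of the age effects over the 4 tissues, on the log2 scale, was 3.3 for RPS27L, from brain to muscle. It was 1.98 for RPL22L1, 1.82 for a dim probe set of RPS14 and 1.32 for the second probe set of RPS2, each from duodenum to muscle. For a dim probe set of RPL21, from duodenum to brain, and for RPL31, from muscle to brain, it was 1.48.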

How the results depend on the processing

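Percentages are the share of all probe sets called the same way under that setting. Counts at an unadjusted p were made for members only. With array weights, 2 members fell (0.578%) and 1 rose (0.768%) in brain, 71 fell (18.7%) and 2 rose (12.6%) in duodenum, 5 fell (9.66%) and 2 rose (8.83%) in liver, 23 rose in muscle (15.6%), and 72 differed in age effect between tissues (43.9%). After median centring 21 fell in duodenum (8.64%), 3 rose in muscle (7.68%) and 7 differed in age effect (20.0%). After quantile normalization 4 fell in liver (5.83%), 17 fell (14.2%) and 4 rose (12.2%) in muscle, and 19 differed in age effect (28.8%). Without a variance trend 8 rose in muscle (11.2%) and 19 differed in age effect (27.8%). With 1 tissue's arrays alone 7 fell in duodenum (5.69%), 4 fell in liver (8.49%) and 34 rose in muscle (14.9%). Without the 2 duodenum arrays of bright controls 2 rose in duodenum (7.63%), 6 fell in liver (8.43%), 31 rose in muscle (14.7%) and 48 differed in age effect (34.7%). Adding 1 before log2 left 0 falling in liver by limma (5.5%, 7 at an unadjusted p under 0.05). The cause of these shifts was not tested.

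With the replicate number as a block 0 fell in liver (4.52%), 35 fell in duodenum (11.5%), 14 rose in muscle (9.96%) and 24 differed in age effect (23.5%). Leaving out each pool in turn gave 29 to 51 falls and 1 to 3 rises in duodenum, 0 to 1 falls in liver, 5 to 16 rises in muscle and 19 to 43 differences in age effect. The background was 12.3% for the 29 falls, 9.76% for the 5 muscle rises and 26.5% for the 19 differences. It is not given here for the highest counts. The dimmest members, with signals near the filter of 104.6, are limited by signal over background. For 32 values of members with the largest changes or differences, 780 values under alternatives were computed. Of these 726 stayed past the threshold, 54 did not and 0 turned direction. For an age change in 1 tissue, a turn was not possible in part of them. No filter, no trend, a replicate block, that tissue's arrays alone or another tissue's arrays left out keep its log2 value the same. Outside the 32 values, RPS16 in muscle went from 0.39 to -0.01 and the muscle median of the 61 genes from 0.29 to -0.12 after quantile normalization.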
